A study of Mus musculus with 12 samples.

Results

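The genes examined here encode the proteins of the mitochondrial ribosome, read in mouse colon under dextran sulfate sodium (DSS) and ursolic acid (UA). They were chosen by name alone, as the genes annotated as protein coding whose symbol is Mrpl or Mrps followed by digits and an optional letter, a rule that uses no measured value. The rule found 78 of the 54532 genes in the count files. Of 83 symbols of this form, it passed over 5 that carry the pseudogene ending -ps. By the role of the protein, 51 belong to the large subunit (30 with a counterpart in bacterial ribosomes and 21 found only in mitochondria) and 26 to the small subunit (16 and 10). The remaining gene, Mrps36, carries the name but encodes a component of the 2-oxoglutarate dehydrogenase complex of the citric acid cycle, and it was followed beside the others. The symbols Mrps30 and Mrps18a read as small subunit but their proteins sit in the large subunit, where they were counted.

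RNA was sequenced from 12 samples of colonic tissue, 3 in each of 4 groups of male C57BL/6 mice, which had arrived at 6 weeks of age and adapted for 1 week. The Con group received no DSS; its samples are labelled as untreated, while the methods state that Con and DSS mice were gavaged with the vehicle. The DSS group drank 3% (w/v) DSS, a polymer that injures the colonic epithelium, over 5 days. The UA+DSS group (preventive treatment) had the same DSS and was gavaged daily with UA, a plant triterpenoid, at 200 mg/kg for 7 days from the day before DSS, and the DSS+UA group (treatment) had the same dose for 4 days, starting 3 days after DSS began; these days are those of the methods, and other day counts appear elsewhere in the study. All mice were wild type as far as the labels state, no group received UA without DSS, and the labels give no litter, cage or sequencing batch. The libraries were made from colonic tissue and not from single cell types, so fewer cells of a type and less RNA per cell cannot be told apart. The labels and the methods do not state which stretch of colon was sampled.

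The mitochondrial ribosome translates the few messages that mitochondrial DNA encodes, all of them for subunits of the respiratory chain and of the ATP synthase. Its own proteins are encoded in the nucleus, made in the cytosol and imported, so that the particle depends on nuclear and mitochondrial genomes together. In the colon, mitochondrial respiration is prominent in the absorptive epithelium, which oxidises bacterial short-chain fatty acids, mainly butyrate.

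Each library held 15566216 to 19498383 counts. CPM, the level used throughout, is the count relative to the TMM-scaled library size, and a gene was called changed where edgeR's quasi-likelihood test, fitted to all 12 libraries, gave an adjusted p under 0.05 over the 17658 tested genes. Of the 78 genes, 77 passed the filter on low counts, and Mrpl53 had 0 counts in every library; its exons lie for 88.0% within the exons of Gm42688 on the same strand. Another gene shares 10% or more of the exon sequence of 24 members by overlap or by repeated stretches of 50 bases, so their counts are uncertain, since the use of strand in counting is not given in the sources used here. All 11 epithelial marker genes had counts in every group. A score of position along the colon, from rectal minus caecal Hox genes, was 5.52, -3.02 and -1.83 in the Con libraries, 3.10, 1.35 and 0.37 in DSS, -4.88, -5.70 and -4.16 in UA+DSS and 4.12, 4.48 and 5.06 in DSS+UA, so the libraries of the UA+DSS and DSS+UA groups lay at opposite ends of it.

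To show what the start sites of these genes hold, windows from 250 bases before to 50 bases after the start were read from RefSeq (build GRCm38.p6), which has 75 of them for 69 of the 78 genes. Letters of 3 factors linked to nuclear genes for mitochondria were searched on both strands: CCGGAAG (ETS family, which includes GABPA), AAGATGGC (YY1) and GCGCATGC (NRF1). Where the first adjoins the second, both can count the same AAG. The ETS letters were in 34.7% of the windows of these genes, against 15.0% of the windows of all tested genes and 8.86% of all RefSeq windows. The YY1 letters were in 16.0%, against 3.77% and 2.75%, and the NRF1 letters in 10.7%, against 4.42% and 2.71%. At least 1 of the 3 stood in 50.7% of the windows of these genes, compared with 21.2% and 13.3%. Other letters were about as frequent as in tested genes, with GGGCGG (GC box) in 52.0% against 57.4%, CCAAT in 40.0% against 36.9%, CACGTG (E box) in 9.33% against 9.16% and TATAAA in 6.67% against 8.29%. The median GC content was 58.7%, against 59.7%. A match of letters is a description of the window and not a binding site. Shown here are the windows of 5 members whose values are described further on, all of which hold at least 1 of the 3. The windows of Mrps6, Mrpl16, Mrpl20 and Mrpl46, also described further on, hold none of the 3 and are not shown. Each is 5′ to 3′ on the strand of its gene, with capitals for ETS, YY1 and NRF1 letters.
Mrpl34, chr8:71464676-71464975, plus strand: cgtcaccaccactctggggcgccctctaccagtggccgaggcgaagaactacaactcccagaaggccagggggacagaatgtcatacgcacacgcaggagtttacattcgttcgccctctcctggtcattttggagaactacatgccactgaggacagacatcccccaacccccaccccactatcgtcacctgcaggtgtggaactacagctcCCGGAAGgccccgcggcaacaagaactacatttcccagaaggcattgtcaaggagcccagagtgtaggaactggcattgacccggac
Mrps7, chr11:115603890-115604189, plus strand: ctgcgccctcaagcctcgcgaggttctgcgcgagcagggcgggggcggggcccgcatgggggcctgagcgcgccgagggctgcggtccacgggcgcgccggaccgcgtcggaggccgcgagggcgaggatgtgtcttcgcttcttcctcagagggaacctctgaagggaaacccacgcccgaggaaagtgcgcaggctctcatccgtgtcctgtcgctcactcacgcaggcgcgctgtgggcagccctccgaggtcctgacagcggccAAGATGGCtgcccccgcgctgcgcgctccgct
Mrpl22, chr11:58171414-58171713, plus strand: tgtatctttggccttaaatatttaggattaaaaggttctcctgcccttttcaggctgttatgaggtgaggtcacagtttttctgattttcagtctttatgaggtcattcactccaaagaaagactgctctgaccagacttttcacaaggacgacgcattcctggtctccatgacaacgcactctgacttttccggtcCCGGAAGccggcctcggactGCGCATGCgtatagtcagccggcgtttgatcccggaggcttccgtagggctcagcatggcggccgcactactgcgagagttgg
Mrpl35, chr6:71823735-71824034, minus strand: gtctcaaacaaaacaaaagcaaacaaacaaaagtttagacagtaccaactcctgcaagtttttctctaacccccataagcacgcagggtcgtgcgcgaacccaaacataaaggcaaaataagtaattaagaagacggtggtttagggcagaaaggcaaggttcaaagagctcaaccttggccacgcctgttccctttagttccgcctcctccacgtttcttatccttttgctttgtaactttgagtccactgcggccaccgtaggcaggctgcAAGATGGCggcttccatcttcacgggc
Mrps11, chr7:78782881-78783180, plus strand: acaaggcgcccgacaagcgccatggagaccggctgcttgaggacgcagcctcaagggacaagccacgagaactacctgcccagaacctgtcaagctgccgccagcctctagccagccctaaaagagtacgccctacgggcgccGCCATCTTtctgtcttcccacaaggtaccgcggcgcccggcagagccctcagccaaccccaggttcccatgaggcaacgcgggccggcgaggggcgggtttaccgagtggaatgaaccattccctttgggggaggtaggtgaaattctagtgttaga

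The ETS letters of Mrpl34 began 37 bases before its RefSeq start. Mrpl22 held both ETS letters, 53 bases before the start, and NRF1 letters, 33 bases before it. In Mrps7 and Mrpl35 the YY1 letters lay 18 and 23 bases after the start, and in Mrps11 they lay 107 bases before it on the opposite strand. The Mrps11 window is also close to that of another member: Mrps11 and Mrpl46, on chromosome 7, run in opposite directions from starts 42 bases apart. Their windows share 141 bases, and their exons 173. Among the genes with a window, the ETS letters occurred in 7 of the 20 raised in DSS+UA against DSS and in 19 of the other 49. The YY1 letters occurred in 5 of the 20 and 7 of the 49, and the NRF1 letters in 1 and 7.

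The summed level of the 78 genes was highest in the DSS+UA group, in each of its 3 libraries. It was 3901, 3445 and 2938 CPM in the Con libraries, 3751, 2933 and 3175 CPM in DSS, 3084, 3281 and 3189 CPM in UA+DSS, whereas the DSS+UA libraries had 4799, 5086 and 4795 CPM. As group means this was 3428 ± 481 (SD, n = 3), 3286 ± 420, 3185 ± 98.2 and 4893 ± 167 CPM, so the DSS+UA mean was 1.43-fold that of Con, 1.49-fold that of DSS and 1.54-fold that of UA+DSS. The other 3 groups overlapped one another. The large subunit summed to 3374 to 3593 CPM in DSS+UA and to at most 2736 CPM in the other groups, and the small subunit to 1382 to 1452 CPM and at most 1129 CPM. The ratio of large to small subunit sums kept to a narrow range, 2.33 to 2.42 in Con, 2.40 to 2.57 in DSS, 2.34 to 2.43 in UA+DSS and 2.42 to 2.48 in DSS+UA. Within Con and within DSS, the library with the highest sum, replicate 1, was also the one with the highest position score.

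**Figure D1:**
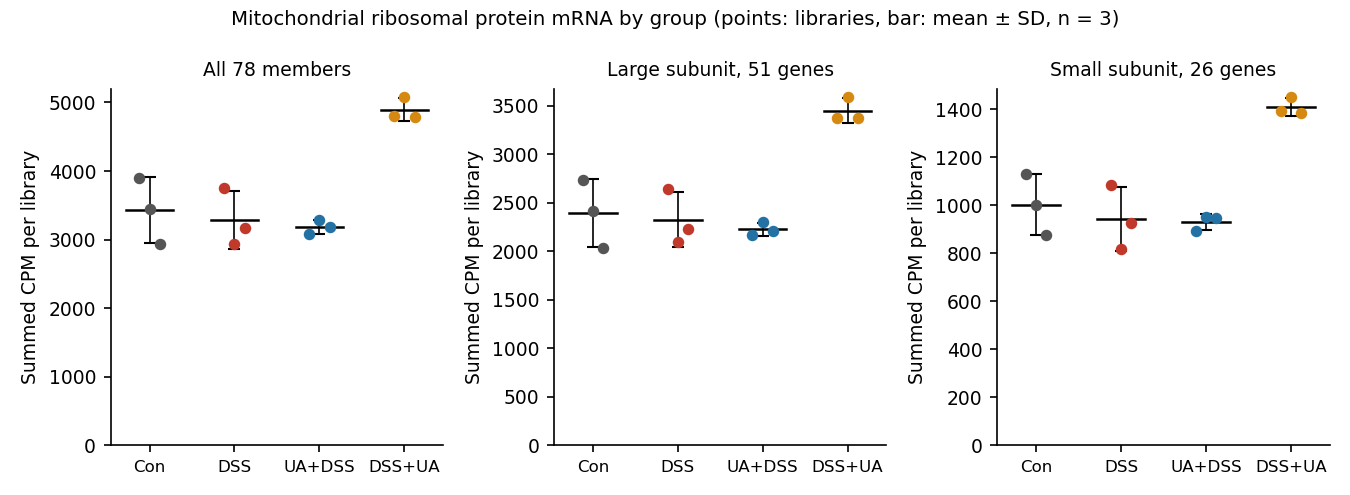
Summed CPM of the mitochondrial ribosomal protein genes per library (y axis, from 0) in the 4 groups (x axis), for all 78 genes and for the large (51) and small (26) subunit. Points are libraries and black bars are the mean ± SD of 3; the DSS+UA libraries (4795 to 5086 CPM for all genes) lie above all others.

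Divided by exon length, the levels of the members spread widely. In Con the mean level per kilobase of exon had a median of 17.2 CPM and ran up to 90.4 ± 29.0 (SD, n = 3) in Mrpl52, 84.7 ± 21.3 in Mrps21 and 81.3 ± 10.6 in Mrpl34. Mrpl52 encodes a mitochondria-specific protein of the large subunit, and Mrps21 and Mrpl34 encode small proteins with bacterial counterparts. These 3 levels did not differ beyond their SD. The lowest detected levels per kilobase were 3.38 ± 0.504 CPM in Mrps30, 4.48 ± 0.629 in Mrps25 and 4.55 ± 0.741 in Mrpl19, and for Mrps25 and Mrpl19 the exons overlap another gene for 69.8% and 36.0% of their length. Exon length joins all annotated transcripts of a gene, so long minor transcripts lower a level per kilobase. The coefficient of variation between replicates had a median over the members of 15.3% in Con, 15.0% in DSS, 7.84% in UA+DSS and 8.59% in DSS+UA.

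The DSS+UA group had the highest mean for 75 of the 78 genes, and the exceptions were Mrpl24 (highest in Con), Mrps31 (highest in UA+DSS) and Mrpl53, which has no counts. All 3 DSS+UA libraries lay above all other 9 for 50 of the 77 tested genes, or 64.9%, against 6.07% of all tested genes. Among the 27 others, Mrpl52 had 125 CPM in its lowest DSS+UA library and 137 CPM in its highest other one, Con 1. For all 77 the heatmap by library shows this block in the DSS+UA columns, with weaker and mixed columns elsewhere.

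**Figure D2:**
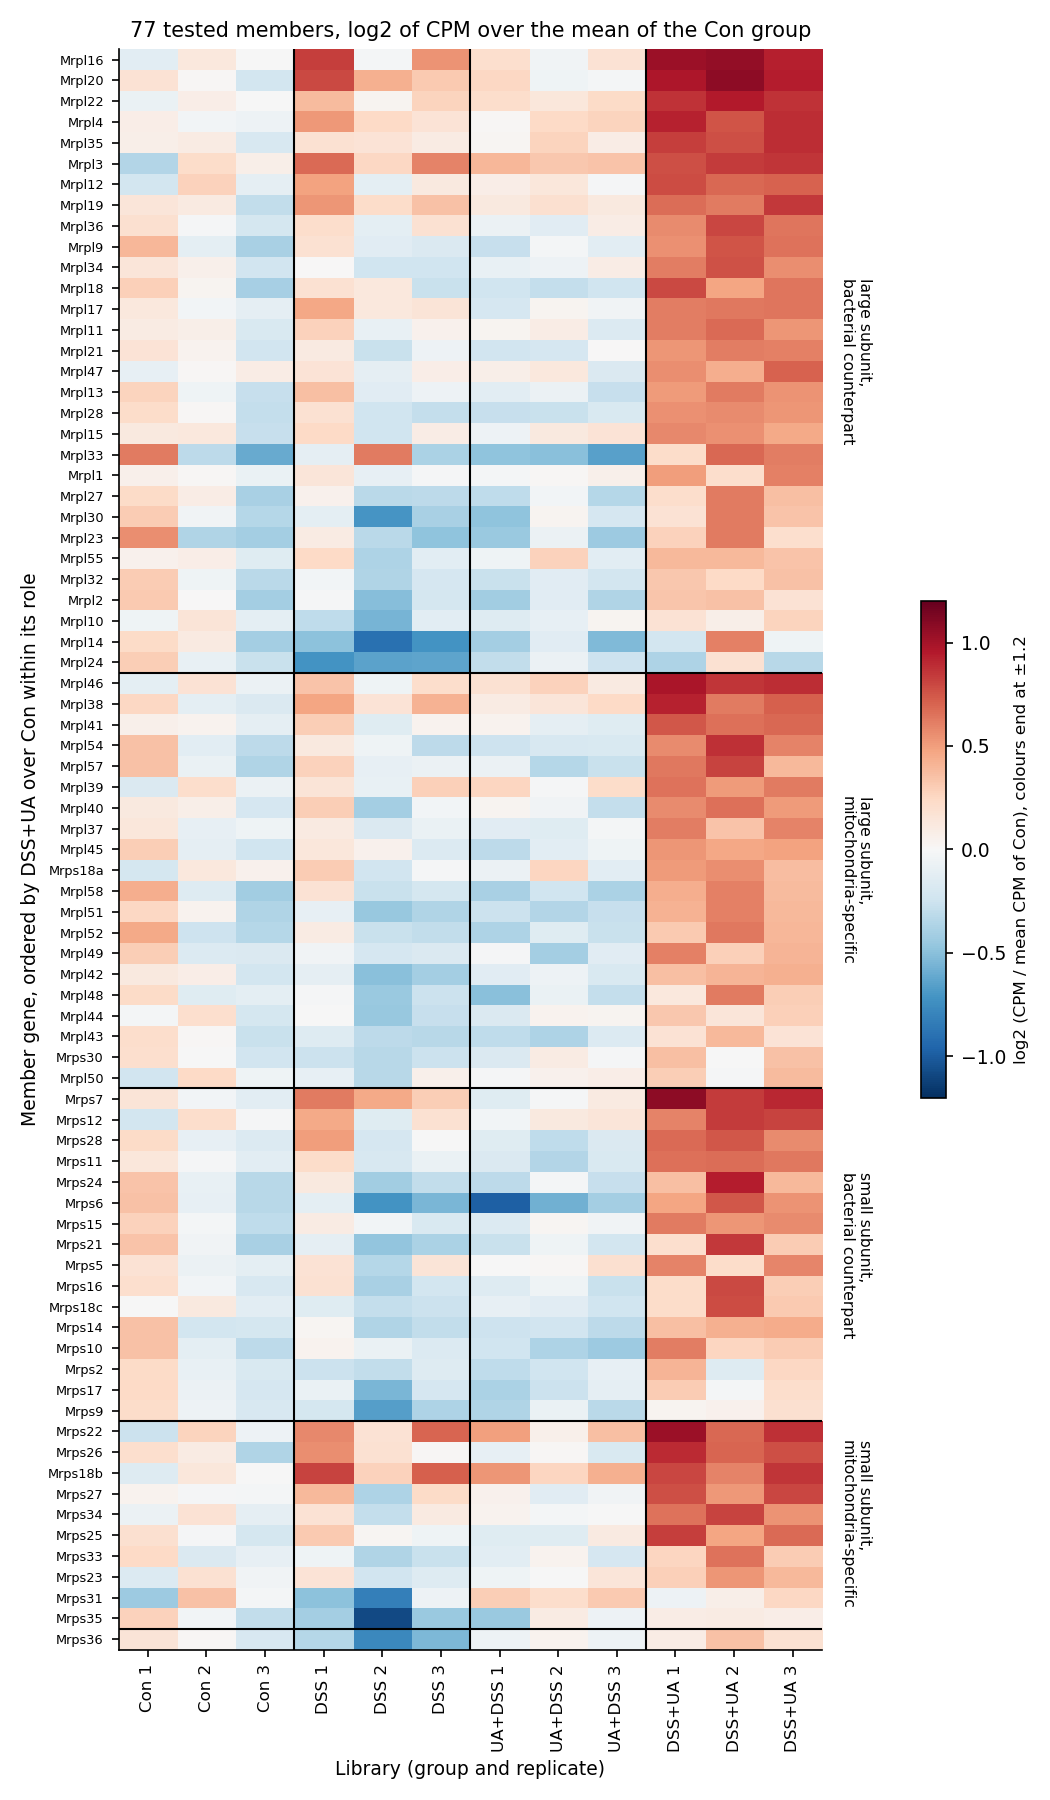
Heatmap of the 77 tested genes (rows, grouped by role, Mrps36 last) in the 12 libraries (columns), coloured by log2 of CPM over the Con mean, with colours ending at ±1.2. The 3 DSS+UA columns are red for nearly all rows, while Mrpl24, Mrps31 and a few others have their highest values elsewhere.

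The comparison of DSS with Con asks what DSS did to these genes, and few of them were called changed. edgeR called 4 genes raised and 2 lowered among the 77, where 26.5% of all tested genes were called, and the median log2 fold change was -0.04 (-0.03 over all tested genes). The genes raised were Mrps18b, Mrpl20, Mrpl3 and Mrps7, and those lowered were Mrpl24 and Mrps36. Without overlap of libraries 6 members were higher and 8 lower in DSS, against 21.2% and 20.1% of all tested genes.

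Mrps7 encodes the counterpart of bacterial S7, a protein of the head of the small subunit that contacts ribosomal RNA. The gene lies at chr11:115603925-115608036 on the plus strand (GRCm38, as are all gene positions here). Its levels were 47.2, 41.4 and 38.8 CPM in Con against 65.6, 58.3 and 52.0 CPM in DSS, without overlap, a log2 fold change of 0.46 ± 0.14 (SE; edgeR adjusted p = 0.0312). Mrpl20 (chr4:155802878-155809975, plus strand), a large-subunit protein with a bacterial counterpart, had 60.0, 54.0 and 45.9 CPM in Con compared with 92.1, 71.8 and 66.5 CPM in DSS (0.53 ± 0.16, edgeR adjusted p = 0.0329). The same direction was seen for Mrpl3, which reaches toward the peptidyl transferase centre, with 32.2, 47.7 and 43.2 CPM in Con against 65.6, 48.8 and 62.2 CPM in DSS. Its log2 fold change was 0.52 ± 0.16 (edgeR adjusted p = 0.0363), and 1 Con library lay close to the lowest DSS library. Mrps18b is one of 3 mammalian relatives of bacterial S18 and had 10.9, 13.3 and 12.1 CPM in Con compared with 21.3, 14.7 and 19.8 CPM in DSS. It rose by 0.62 ± 0.18 (edgeR adjusted p = 0.0281), and 30.5% of its exons lie opposite Gm16279.

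Mrpl24 (chr3:87919506-87923672, plus strand), near the exit of the peptide tunnel, had 93.1, 71.4 and 63.2 CPM in Con against 46.1, 48.7 and 48.8 CPM in DSS, a log2 fold change of -0.66 ± 0.18 (edgeR adjusted p = 0.0226), and 26.3% of its exons lie opposite Rrnad1. Mrps36 (chr13:100735955-100744659, minus strand), the dehydrogenase component, had 35.9, 32.6 and 28.3 CPM in Con compared with 25.4, 18.8 and 22.1 CPM in DSS (-0.54 ± 0.15, edgeR adjusted p = 0.0239), and 17.3% of its 50-base stretches recur in other genes, chiefly Mrps36-ps1. Its DSS libraries all lay under its Con libraries. The count of 6 genes fell to 3 without Con 1, Con 2, DSS 3 or DSS+UA 3, to 1 without DSS 1, to 1 with no filter on low counts and to 0 in a fit of these groups alone (8 at an unadjusted p under 0.05; DESeq2 called 8 and limma-voom 6), and was 10 with the position score as a covariate. With upper-quartile scaling 2 were raised and 4 lowered, and with the library size alone 4 and 1. Of all tested genes 16.9% were called without DSS 1, 11.6% with no filter and 12.6% in a fit of these groups alone. The share was 21.5% without Con 1, 15.8% without Con 2, 23.4% without DSS 3 and 21.9% without DSS+UA 3. With the position score 30.5% were called, by DESeq2 32.3%, and 26.5% in the reported fit. The 6 neutrophil markers summed to 0.998 to 2.14 CPM in Con but 600.4 to 17654 CPM in DSS, and the epithelial markers to 14329 to 19906 CPM but 8207 to 13233 CPM; their part in the result was not tested.

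**Figure D3:**
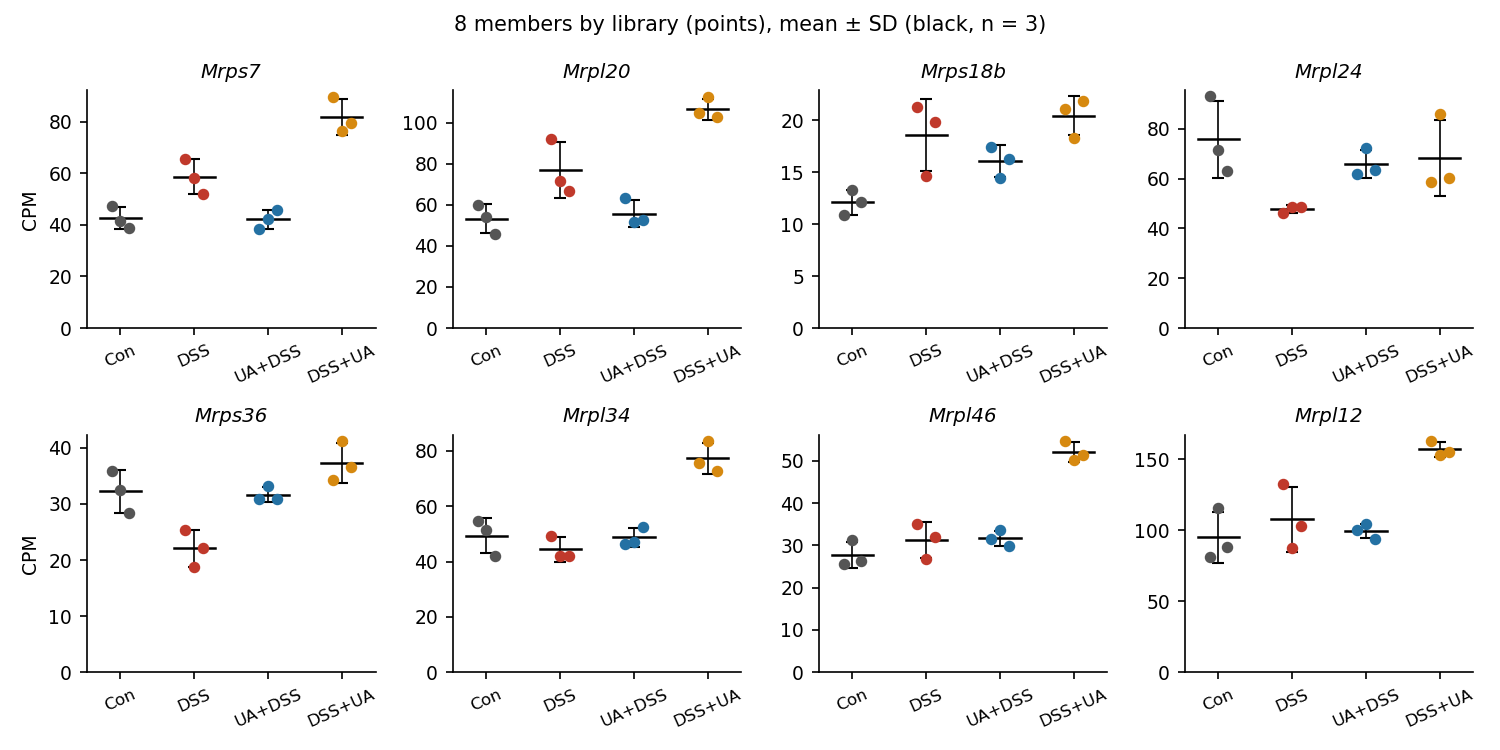
CPM (y axes, from 0) of 8 members by group (x axes). Points are the 3 libraries of a group, black bars their mean ± SD; Mrps7, Mrpl20 and Mrps18b were higher in DSS than in Con, Mrpl24 and Mrps36 lower, and for Mrpl34, Mrpl46 and Mrpl12 the DSS+UA libraries lie above the rest.

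UA given after the onset of DSS is compared with DSS alone by the DSS+UA and DSS groups. All 77 genes had a higher fitted level in DSS+UA, with a median log2 fold change of 0.56, or 1.48-fold, against 0.02 over all tested genes, and the members ranged from 0.14 to 1.03. edgeR called 23 raised and 0 lowered, where 2.54% of all tested genes were called raised and 7.54% were called in either direction. For 71 of the 77 every DSS+UA library lay above every DSS library, against 18.3% of all tested genes that were higher without overlap. Both subunits took part, with 14 of 50 tested large-subunit genes (median 0.54) and 8 of 26 small-subunit genes (median 0.57) called, besides Mrps36. By origin, 14 of the 46 proteins with bacterial counterparts and 8 of the 30 mitochondria-specific ones were called.

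The gene raised most was Mrps6 (chr16:92058270-92112227, plus strand), the counterpart of bacterial S6. Its levels were 34.2, 22.5 and 25.4 CPM in DSS against 51.3, 62.0 and 53.8 CPM in DSS+UA, a log2 fold change of 1.03 ± 0.22 (edgeR adjusted p = 0.0276). Its exons overlap those of Gm49711 for 19.9% and of Slc5a3 for 10.4% of their length on the same strand, so its counts are uncertain. Mrpl34 (chr8:71464959-71465747, plus strand), which shares neither exon bases nor 50-base stretches with another gene, had 49.4, 41.8 and 41.8 CPM in DSS compared with 75.7, 83.6 and 72.7 CPM in DSS+UA (0.80 ± 0.14, edgeR adjusted p = 0.0147). It was called in 19 of 22 alternatives, with an adjusted p of at most 0.0717.

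Mrps21, a small protein of the small subunit, had 57.9, 44.9 and 48.1 CPM in DSS against 71.7, 112 and 77.2 CPM in DSS+UA, and its log2 fold change of 0.79 ± 0.22 was only just called (edgeR adjusted p = 0.0488). Its library DSS+UA 2 lay well above DSS+UA 1 and DSS+UA 3. Mrpl51 and Mrpl54 encode mitochondria-specific proteins of the large subunit. Mrpl51 had 103, 80.7 and 85.9 CPM in DSS compared with 148, 168 and 145 CPM in DSS+UA (0.77 ± 0.17, edgeR adjusted p = 0.0276). Mrpl54 had 63.2, 56.3 and 46.8 CPM in DSS against 86.2, 107 and 87.8 CPM in DSS+UA (0.76 ± 0.18, edgeR adjusted p = 0.0374).

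The pair that runs in opposite directions from neighbouring starts was called on both sides. Mrpl46 (chr7:78775236-78783531, minus strand), a mitochondria-specific protein of the large subunit, had 35.2, 26.8 and 32.1 CPM in DSS compared with 54.7, 50.2 and 51.3 CPM in DSS+UA (0.73 ± 0.14, edgeR adjusted p = 0.0202). Mrps11 (chr7:78783119-78792989, plus strand), the counterpart of bacterial S11, had 21.6, 16.2 and 17.5 CPM in DSS against 29.3, 29.4 and 28.7 CPM in DSS+UA (0.66 ± 0.15, edgeR adjusted p = 0.0327). Reads of their shared 173 bases cannot be assigned without strand. Mrpl35, also shown by its window, had 31.1, 30.7 and 29.3 CPM in DSS compared with 48.5, 46.9 and 50.6 CPM in DSS+UA (0.68 ± 0.13, edgeR adjusted p = 0.0202); it and Mrps11 were chosen after their values were seen, to go with their windows.

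Of the 54 genes with no exon sharing of this kind, 15 were raised (median 0.52), a count made after seeing the data. The number raised depended on single libraries: it was 0 without DSS+UA 2 or without DSS+UA 3 (54 and 66 at an unadjusted p under 0.05) and 3 without DSS 2, where the calls over all tested genes fell from 7.54% to 0.775%, 0.137% and 2.19%. It was 10 without UA+DSS 1 or UA+DSS 3, 11 without UA+DSS 2, 12 without DSS 3 or DSS+UA 1, 14 without Con 2 and 40 without Con 1. Over all tested genes the calls were 3.4% without UA+DSS 1, 3.17% without UA+DSS 3 and 3.72% without UA+DSS 2. They were 7.87% without DSS 3, 5.24% without DSS+UA 1, 4.9% without Con 2 and 10.1% without Con 1. The count was also 0 in a fit of these groups alone (59 at an unadjusted p under 0.05), 2 with the position score as a covariate (Mrpl34 and Mrpl46, with 58 at an unadjusted p under 0.05 and 1.13% of all tested genes called), and 51 by DESeq2 and 20 by limma-voom, and in each of these settings all 77 genes stayed higher in DSS+UA. Of all tested genes 2.62% were called in the fit of these groups alone, 17.7% by DESeq2 and 6.52% by limma-voom. With the library size as the only scaling factor 7 were raised, the median log2 fold change was 0.42, and that of all tested genes shifted by -0.13; the calls over all genes were then 140 raised and 1003 lowered, against 448 and 883. The position score does not overlap between these groups (4.12 to 5.06 in DSS+UA, 0.37 to 3.10 in DSS), and other levels moved between them too. The 11 epithelial markers summed to 16999.6 to 26366 CPM in DSS+UA and 8207 to 13233 CPM in DSS, and the 6 fibroblast markers to 949 to 2340.2 CPM and 3197 to 6929.9 CPM. The 6 neutrophil markers overlapped, at 125 to 682 CPM in DSS+UA and 600.4 to 17654 CPM (median 794 CPM) in DSS. All these markers had counts in both groups. The 16 proliferation genes overlapped too, at 1264 to 2101 CPM in DSS+UA and 1250.4 to 1488 CPM in DSS. Their part in the result was not tested.

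Against Con, the DSS+UA group had higher levels of 76 of the 77 genes, Mrpl24 being the exception, with a median log2 fold change of 0.53 (1.44-fold; -0.03 over all tested genes). edgeR called 39 raised and 0 lowered, where 9.13% of all tested genes were called raised and 8.95% lowered (18.1% in either direction). These were 28 of 50 large-subunit genes (median 0.54) and 11 of 26 small-subunit genes (median 0.53). Among large-subunit genes, 20 of 30 with a bacterial counterpart and 8 of 20 mitochondria-specific ones were called. The small subunit went the other way, with 5 of 16 and 6 of 10. For 52 genes every DSS+UA library lay above every Con library, against 19.8% of all tested genes that were higher without overlap.

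Mrpl16 (chr19:11770391-11774960, plus strand), a protein with a bacterial counterpart that binds near the transfer RNA sites, was raised most, from 22.9, 27.2 and 24.8 CPM in Con to 50.8, 51.8 and 47.7 CPM in DSS+UA (log2 fold change 1.00 ± 0.19, edgeR adjusted p = 0.00874). Mrpl20 went from the Con values given above to 105, 112 and 103 CPM (1.00 ± 0.16, edgeR adjusted p = 0.00542), and Mrps7 to 89.5, 76.1 and 79.3 CPM (0.94 ± 0.14, edgeR adjusted p = 0.00504). Both had been intermediate in DSS. Mrpl46 had 25.6, 31.2 and 26.3 CPM in Con, all well under its DSS+UA values (0.91 ± 0.14, edgeR adjusted p = 0.00528). Mrpl22, which lines the peptide tunnel, had 18.2, 20.2 and 19.1 CPM in Con against 35.1, 37.0 and 34.9 CPM in DSS+UA (0.89 ± 0.13, edgeR adjusted p = 0.00504), and 22.4% of its 50-base stretches recur elsewhere, chiefly in Gm6997. These 5 genes were called in all 22 alternatives, the highest adjusted p being 0.0337 for Mrpl16. Mrps18b, at 21.1, 18.3 and 21.8 CPM in DSS+UA, was raised by 0.76 ± 0.18 (edgeR adjusted p = 0.0188), and Mrpl3, at 70.0, 73.4 and 74.6 CPM, by 0.82 ± 0.16 (edgeR adjusted p = 0.00956).

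The count of 39 fell to 23 without Con 2 or DSS+UA 1, to 17 without Con 3 and to 15 without DSS+UA 3; it was 25 with the library size alone, 19 in a fit of these groups alone and 17 with the position score as a covariate, when 72 of the 77 stayed higher. With the library size alone the calls over all tested genes were 1035 raised and 1557 lowered, against 1613 and 1580. Of all tested genes 10.3% were called without Con 2, 9.91% without DSS+UA 1, 8.58% without Con 3 and 5.81% without DSS+UA 3. The share was 12.3% both in a fit of these groups alone and with the position score. Between these groups the proliferation genes summed to 1264 to 2101 CPM in DSS+UA and 929 to 1258 CPM in Con, while the epithelial markers overlapped, at 16999.6 to 26366 CPM and 14329 to 19906 CPM. The smooth muscle markers summed to 436 to 866 CPM and 1094 to 3467 CPM (3 of 6 lowered), the 5 endothelial ones to 76.1 to 82.6 CPM and 121 to 164 CPM (2 of 5 lowered) and the neutrophil ones to 125 to 682 CPM and 0.998 to 2.14 CPM (6 of 6 raised). Their part in the result was not tested.

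Few of these genes were called changed where UA was given from before DSS. In UA+DSS against DSS, edgeR called 1 gene raised and 1 lowered among the 77, where 18.7% of all tested genes were called (8.21% raised and 10.5% lowered), and the median log2 fold change was -0.05 (-0.02 over all tested genes). The gene raised was Mrps36, with 25.4, 18.8 and 22.1 CPM in DSS compared with 30.9, 33.2 and 30.9 CPM in UA+DSS (0.52 ± 0.15, edgeR adjusted p = 0.0381). The gene lowered was Mrps7, with 65.6, 58.3 and 52.0 CPM in DSS against 38.4, 42.2 and 45.8 CPM in UA+DSS (-0.48 ± 0.14, edgeR adjusted p = 0.0371). The UA+DSS libraries of both overlapped those of Con.

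Neither call was firm. The count fell to 0 without any 1 of the UA+DSS libraries or without DSS+UA 3 (4 to 6 at an unadjusted p under 0.05), to 1 without Con 2, DSS 1, DSS 2, DSS+UA 1 or DSS+UA 2, and to 0 with no filter, with the position score or in a fit of these groups alone (6 or 7 at an unadjusted p under 0.05; with the position score 0.017% of all tested genes were called), while it was 3 by limma-voom and without Con 1 or DSS 3, and 4 by DESeq2. With the library size alone 0 were raised and 2 lowered, and with upper-quartile factors 2 were raised and 1 lowered. With the position score, which does not overlap between UA+DSS and either DSS or Con, the median log2 fold change turned to 0.17. Of all tested genes 1% were called without UA+DSS 2, 7.3% with no filter, 12.4% in a fit of these groups alone and 25.5% by DESeq2.

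For UA+DSS against Con edgeR called 0 of the 77 genes, and 0.00566% of all tested genes, with 2 members at an unadjusted p under 0.05. DESeq2 and limma-voom called 0 as well. The median log2 fold change was -0.09 (-0.01 over all tested genes), with 24 genes higher and 53 lower, and without overlap 3 were higher and 3 lower (9.62% and 11% of all tested genes); the median turned to 0.10 with the position score. The 3 smallest p belonged to Mrps6, Mrps18b and Mrpl3. Mrps6 had 47.2, 34.6 and 29.5 CPM in Con compared with 18.8, 24.9 and 27.9 CPM in UA+DSS, all lower but with a log2 fold change of -0.64 ± 0.22 that did not pass (edgeR adjusted p = 0.331). Mrps18b had 17.5, 14.4 and 16.3 CPM in UA+DSS, above its Con values (0.41 ± 0.18, edgeR adjusted p = 0.406), and Mrpl3 had 54.1, 51.4 and 52.1 CPM (0.36 ± 0.16, edgeR adjusted p = 0.414).

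The 2 groups given UA were compared directly, and here the members differed most often. In UA+DSS against DSS+UA, edgeR called 48 of the 77 lowered and 0 raised, where 9.23% of all tested genes were called lowered and 16.8% in either direction. The median log2 fold change was -0.64 (0.64-fold; 0.01 over all tested genes), and 70 genes were lower without overlap, against 22.5% of all tested genes. Called were 34 of 50 large-subunit genes (median -0.65) and 14 of 26 small-subunit genes (median -0.64). The one gene higher in UA+DSS was Mrps31, named after its values were seen, with 42.1, 39.8 and 42.6 CPM there and 33.0, 36.1 and 40.9 CPM in DSS+UA (0.18 ± 0.22, edgeR adjusted p = 0.597).

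Mrps6 showed the widest gap, with 18.8, 24.9 and 27.9 CPM in UA+DSS against 51.3, 62.0 and 53.8 CPM in DSS+UA, a log2 fold change of -1.22 ± 0.22 (edgeR adjusted p = 0.00859). Mrpl33 (chr5:31596935-31664384, plus strand), a small large-subunit protein with a bacterial counterpart, had 28.1, 27.7 and 24.99 CPM in UA+DSS against 45.7, 63.4 and 60.2 CPM in DSS+UA (-1.07 ± 0.32, edgeR adjusted p = 0.0442), a call lost in 11 of 22 alternatives, with a log2 fold change that turned to 0.0496 with the position score. Its other groups were uneven, at 60.3, 31.6 and 25.9 CPM in Con compared with 36.4, 60.5 and 30.2 CPM in DSS. For Mrps7 the difference was -0.95 ± 0.14 (edgeR adjusted p = 0.00634) and for Mrpl20, with 63.1, 51.4 and 52.5 CPM in UA+DSS, -0.94 ± 0.16 (edgeR adjusted p = 0.0077). Mrpl18, which in bacteria binds the 5S RNA, had 44.1, 42.9 and 44.2 CPM in UA+DSS against 90.6, 72.6 and 81.2 CPM in DSS+UA (-0.90 ± 0.18, edgeR adjusted p = 0.0122), and 10.1% of its exons lie opposite Tcp1.

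The position score does not overlap between these groups, at -5.70 to -4.16 in UA+DSS and 4.12 to 5.06 in DSS+UA, and with it as a covariate edgeR called 0 of the 77 (13 at an unadjusted p under 0.05) and 0 of all 17658 tested genes, with a median over the members of -0.31 and 66 of them lower. The time of UA, its days of gavage (7 against 4) and position along the colon cannot be told apart in these libraries. The count also fell to 11 without UA+DSS 2, 24 without UA+DSS 3, 26 without UA+DSS 1, 23 without DSS+UA 3 and 31 without DSS+UA 1. Of all tested genes 3.07%, 9.04%, 7.9%, 5.1% and 9.31% were then called. Proliferation genes summed to 499 to 895 CPM in UA+DSS but 1264 to 2101 CPM in DSS+UA. The 6 smooth muscle markers summed to 1125 to 2436 CPM and 436 to 866 CPM. In the same order the 6 neutrophil markers summed to 12.3 to 66.8 CPM and 125 to 682 CPM. The 6 goblet cell markers had 9766 to 10511 CPM and 4037 to 8983 CPM. For the 5 endothelial markers this was 95.3 to 115 CPM and 76.1 to 82.6 CPM. The remaining marker lists, the epithelial one among them, overlapped. Every marker had counts, and the part of these lists in the result was not tested. In the plot of the summed level against the score, the UA+DSS libraries and Con 2 and Con 3 lie at the low end of the score with 2938 to 3445 CPM, and the DSS+UA libraries lie above Con 1, whose score is the highest of all.

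**Figure D4:**
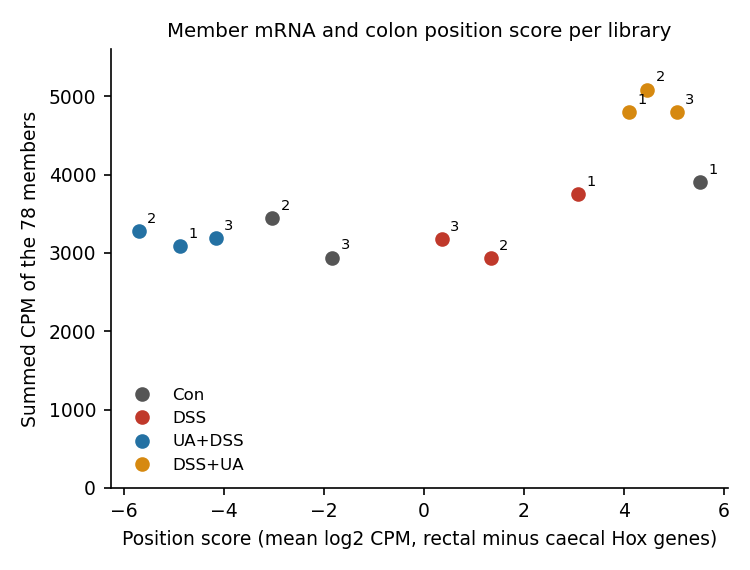
Summed CPM of the 78 genes (y axis, from 0) against the position score (x axis, mean log2 CPM of rectal minus caecal Hox genes) for the 12 libraries, coloured by group, with the replicate number beside each point. The 3 DSS+UA libraries (4795 to 5086 CPM) lie above Con 1 (3901 CPM) and DSS 1 (3751 CPM), the libraries with the nearest scores.

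Members with a role beyond or apart from the body of the ribosome are given by name. Mrpl12, the counterpart of the L7/L12 stalk protein, is also known to bind the mitochondrial RNA polymerase. It had 81.5, 115 and 88.0 CPM in Con, 133, 87.5 and 103 CPM in DSS, 100.1, 104 and 93.8 CPM in UA+DSS, while DSS+UA had 163, 153 and 155 CPM. It was raised in DSS+UA against Con (0.72 ± 0.18, edgeR adjusted p = 0.0208), lowered in UA+DSS against DSS+UA (-0.66 ± 0.18, edgeR adjusted p = 0.0300) and not called against DSS (0.54 ± 0.18, edgeR adjusted p = 0.0762), and 13.1% of its exons lie opposite Gm16755.

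Mrpl45 anchors the ribosome to the inner membrane, and Mrpl58 is a peptidyl-tRNA hydrolase built into the large subunit that releases stalled chains. Mrpl45 had 64.2, 61.5 and 62.1 CPM in DSS+UA and at most 54.6 CPM elsewhere, but its difference from Con just missed the threshold (0.49 ± 0.16, edgeR adjusted p = 0.0503). Mrpl58 had 57.3, 64.1 and 54.8 CPM in DSS+UA and 57.1 CPM in Con 1, which overlaps them. Both were lowered in UA+DSS against DSS+UA, with log2 fold changes of -0.65 ± 0.16 (edgeR adjusted p = 0.0204) and -0.81 ± 0.21 (edgeR adjusted p = 0.0253).

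The 3 relatives of bacterial S18 stand in different places of the particle. Mrps18b was called in DSS and in DSS+UA against Con, as given above. Mrps18c, the S18 counterpart in the small subunit, was called in DSS+UA against DSS, from 18.2, 16.5 and 16.9 CPM to 23.5, 34.7 and 25.1 CPM (0.69 ± 0.17, edgeR adjusted p = 0.0379), a call lost in 14 of 22 alternatives, and in UA+DSS against DSS+UA (-0.62 ± 0.17, edgeR adjusted p = 0.0311), and 23.2% of its exons overlap Gm43511. Mrps18a, in the large subunit, was called in none of the 6 comparisons and had 36.6 to 41.6 CPM in DSS+UA and 24.1 to 34.9 CPM in the other 9 libraries. Whether the 3 differ from one another was not tested. Mrps30 was also called in none, at 22.5 to 28.9 CPM in DSS+UA against 17.9 to 25.9 CPM elsewhere.

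Of 5 further proteins of the mitochondrial ribosome with other symbols, all were higher in DSS+UA than in DSS (median 0.44). Aurkaip1 was the one called (0.61 ± 0.16, edgeR adjusted p = 0.0448), and Dap3, which binds GTP in the small subunit, was close (0.44, edgeR adjusted p = 0.0572). Of the same 5, 4 were lowered in UA+DSS against DSS+UA (Aurkaip1, Chchd1, Dap3 and Gadd45gip1), where 9.23% of all tested genes were lowered. With the position score as a covariate 0 of the 5 and 0 of all tested genes were called there. Of the 5, 0 then had an unadjusted p under 0.05. In DSS against Con and in UA+DSS against DSS, edgeR, DESeq2 and limma-voom called 0 of the 5 (edgeR 1 and 0 at an unadjusted p under 0.05), and there Gadd45gip1 had 0.44 and -0.37 and Chchd1 0.13 and -0.23.

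Counts for the wider machinery of mitochondrial translation stand against calls of 26.5% of all tested genes in DSS against Con, 18.7% in UA+DSS against DSS and 7.54% in DSS+UA against DSS. Of 24 assembly factors, 2 were raised and 1 lowered in DSS against Con: Noa1, a GTPase of small-subunit assembly (0.69 ± 0.17, edgeR adjusted p = 0.0124), Ddx28, an RNA helicase of large-subunit assembly (0.70 ± 0.19, edgeR adjusted p = 0.0211), and Mettl17 (-0.84 ± 0.27, edgeR adjusted p = 0.0428). In DSS+UA against DSS 1 of the 24 was raised, Mpv17l2 (0.74 ± 0.19, edgeR adjusted p = 0.0455), with a median of 0.31 and Mterf4 at 0.66. edgeR called 0 in UA+DSS against DSS (1 at an unadjusted p under 0.05; DESeq2 1, limma-voom 0), Trub2 and Mterf4 having the smallest p, at -0.60 and 0.39. Of 16 translation factors, Mtif3, an initiation factor, and Tufm, the elongation factor that carries tRNA, were raised in DSS+UA against DSS (0.76 ± 0.16 and 0.63 ± 0.16, edgeR adjusted p = 0.0276 and 0.0446), and the median was 0.36. Tufm had 126, 94.8 and 130.0 CPM in DSS against 188, 174 and 181 CPM in DSS+UA. Guf1, an elongation factor related to bacterial LepA, was lowered in DSS against Con (-0.76 ± 0.21, edgeR adjusted p = 0.0255), where Mtfmt had -0.44. Of the 16, edgeR called 0 in UA+DSS against DSS (1 at an unadjusted p under 0.05; DESeq2 1, limma-voom 0), with Tsfm at -0.47 and Oxa1l at 0.38.

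Among 20 mitochondrial tRNA synthetases and their partners, Yars2 was raised in DSS against Con (0.66 ± 0.18, edgeR adjusted p = 0.0212), and Fars2 had -0.58 there. Lars2 and Wars2 were raised in UA+DSS against DSS (0.63 ± 0.18 and 0.71 ± 0.20, edgeR adjusted p = 0.0331 and 0.0336). In DSS+UA against DSS 0 of the 20 were called by edgeR, with 8 at an unadjusted p under 0.05 (DESeq2 called 3 and limma-voom 0), though all 20 had higher fitted levels (median 0.39), Fars2 at 0.81 and Qrsl1 at 0.57. Of 9 genes of mitochondrial DNA transcription and replication, Polg2, the accessory subunit of the DNA polymerase, was lowered in DSS against Con, from 22.6, 15.9 and 12.7 CPM to 5.97, 5.96 and 4.54 CPM (-1.63 ± 0.28, edgeR adjusted p = 0.00368), and raised in UA+DSS against DSS (0.92 ± 0.28, edgeR adjusted p = 0.0411). Twnk, the helicase, had -0.55 in DSS against Con, and Tfam and Polrmt had 0.29 and 0.32 in DSS+UA against DSS, none of them called (0 of the 9 in DSS+UA against DSS by edgeR, DESeq2 or limma-voom, 0 at an unadjusted p under 0.05).

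Of 9 regulators of mitochondrial biogenesis, 1 was raised and 2 lowered in DSS against Con, 3 raised in UA+DSS against DSS and 1 raised in DSS+UA against DSS, beside 26.5%, 18.7% and 7.54% of all tested genes called in either direction. With the position score as a covariate 0 genes of the lists on mitochondria described here were called in UA+DSS against DSS. Only 0.017% of all tested genes were called in that setting, so the 0 says little about these lists. Of the 9 regulators, 4 then had an unadjusted p under 0.05, compared with 5 in the reported fit. Ppargc1a, the coactivator PGC-1α, had 30.8, 37.6 and 31.7 CPM in Con, 10.8, 6.41 and 8.29 CPM in DSS, 19.8, 71.8 and 37.3 CPM in UA+DSS, while DSS+UA had 14.1, 18.9 and 20.2 CPM. It fell by 1.97 on the log2 scale in DSS against Con (SE 0.39, edgeR adjusted p = 0.00608) and was raised in UA+DSS against DSS (2.33 ± 0.39, edgeR adjusted p = 0.00972). In DSS+UA against DSS, the comparison in which 23 members rose, its log2 fold change of 1.06 was not called (edgeR adjusted p = 0.0970). Ppargc1b was likewise lowered in DSS (-1.07 ± 0.28, edgeR adjusted p = 0.0176) and raised in UA+DSS against DSS (1.39 ± 0.28, edgeR adjusted p = 0.0127). Esrra, a nuclear receptor that works with them, was raised in both UA groups against DSS, by 0.68 ± 0.19 in UA+DSS and 0.77 ± 0.19 in DSS+UA (edgeR adjusted p = 0.0311 and 0.0374). Nrf1, a factor whose letters were searched in the windows, was raised in DSS against Con (0.45 ± 0.14, edgeR adjusted p = 0.0403).

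The mRNAs that the mitochondrial ribosome reads, and the nuclear genes for the subunits their products join, are given beside the ribosomal proteins. Of the 13 mRNAs encoded by mitochondrial DNA, 11 were lowered in DSS against Con (median log2 fold change -1.89, beside 12.6% of all tested genes lowered), while 6 of the 77 members were called in either direction there. They summed to 73818, 99967 and 40704 CPM in Con, 17768, 10650.4 and 27720.3 CPM in DSS, 40389, 55420.2 and 40999.5 CPM in UA+DSS, while DSS+UA had 28303, 27631 and 26575 CPM. In DSS+UA against DSS edgeR, DESeq2 and limma-voom called 0 of the 13 (edgeR 1 at an unadjusted p under 0.05, median 0.57), and in DSS+UA against Con 7 were lowered (median -1.46; 8.95% of all tested genes lowered), the contrast in which 39 members were raised. Of 71 nuclear genes for respiratory chain and ATP synthase subunits, 24 were lowered in DSS against Con (median -0.58; 12.6% of all tested genes lowered), 8 were raised in UA+DSS against DSS (0.53; 8.21% raised) and 46 were raised in DSS+UA against DSS (0.88; 2.54% raised). With the position score as a covariate 1 of the 71 was called in DSS+UA against DSS and 0 in UA+DSS against DSS. Over all tested genes the shares called were then 1.13% and 0.017%. At an unadjusted p under 0.05 there were 68 and 28 of the 71, compared with 68 and 42 in the reported fit. Against Con, 2 of the 71 were raised in DSS+UA (0.32; 9.13% of all tested genes raised), compared with 39 of the 77 members.

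The ratio of the summed CPM of the mitochondrial ribosomal proteins to that of the nuclear respiratory subunits was 0.189 ± 0.0249 (SD, n = 3) in Con, 0.263 ± 0.0443 in DSS, 0.168 ± 0.00810 in UA+DSS and 0.218 ± 0.0391 in DSS+UA, and it was above every Con library in 3 of 3 DSS libraries. For the 76 cytosolic ribosomal proteins edgeR called 0 in DSS against Con, UA+DSS against DSS and DSS+UA against DSS, with 0, 0 and 18 at an unadjusted p under 0.05; limma-voom called 0 in each and DESeq2 0, 0 and 2. Their median log2 fold change in DSS+UA against DSS, 0.65, was above the 0.56 of the mitochondrial ones, with summed levels of 70644 to 101974 CPM in DSS+UA and 43166 to 66122 CPM in DSS. The plot of fold changes by list places the 4 lists side by side in the 6 comparisons, which share groups and so are not independent.

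**Figure D5:**
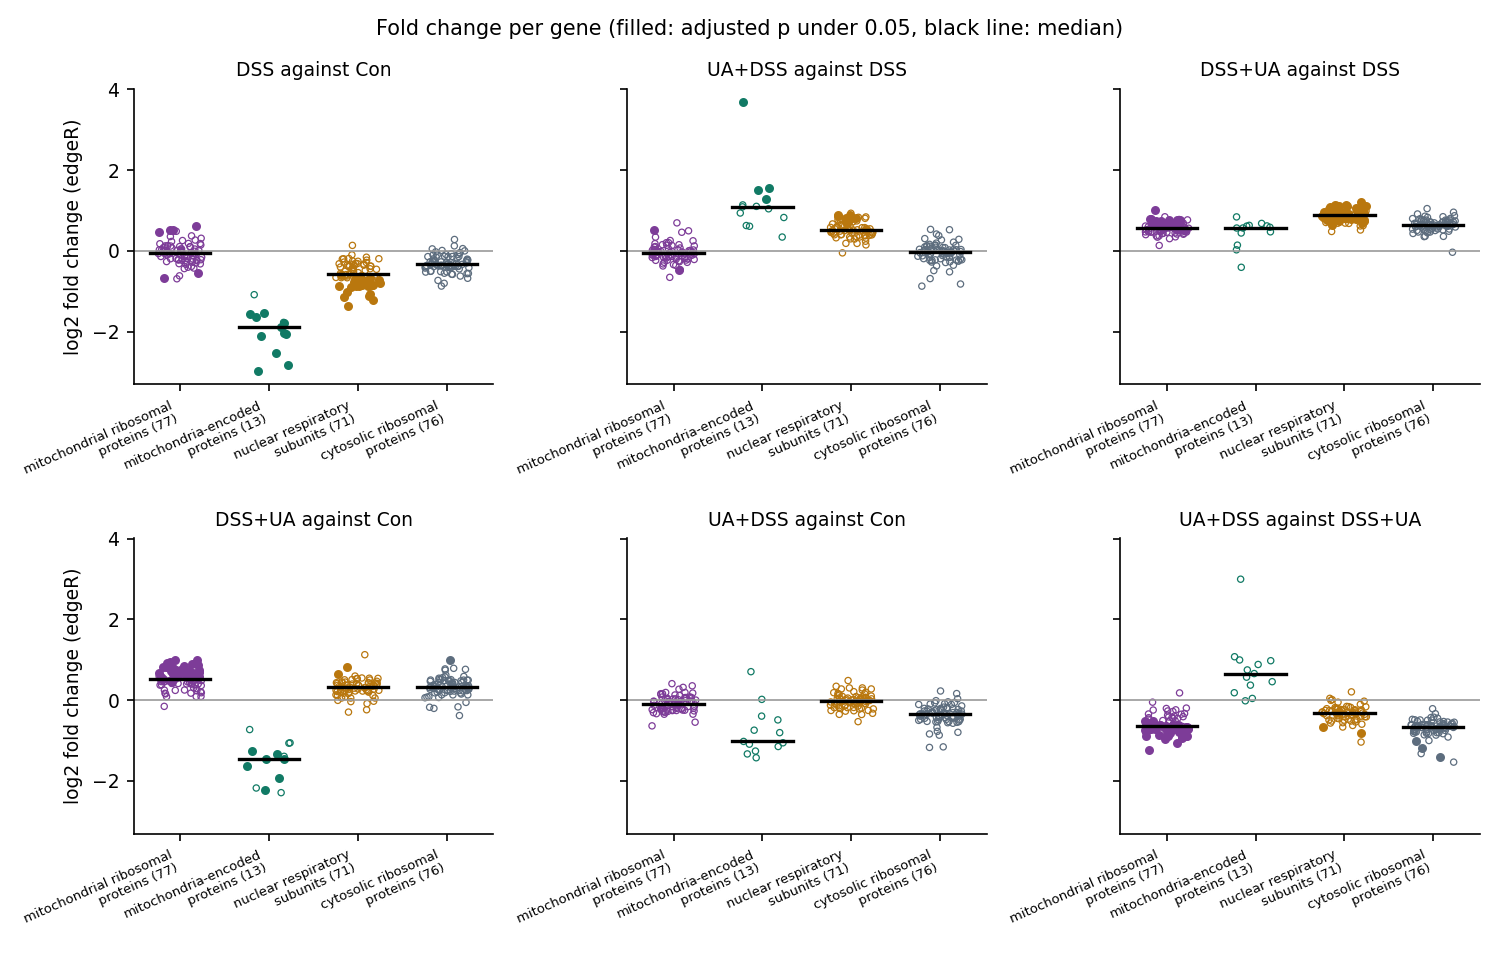
log2 fold change per gene (y axis) in the 6 comparisons (panels) for the 77 tested mitochondrial ribosomal proteins, 13 mitochondria-encoded proteins, 71 nuclear respiratory subunits and 76 cytosolic ribosomal proteins (x axis). Filled points have an adjusted p under 0.05 and black lines are medians; the mitochondrial ribosomal proteins lie around 0 in DSS against Con and above it in both comparisons of DSS+UA with Con and DSS.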

How the data were processed

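The authors extracted RNA from mouse colonic tissue, sequenced it and deposited 1 file of raw counts per gene for each of 12 samples. The submitters' processing notes name FastQC, HISAT2 and Cuffdiff and the build GRCm38, while for the annotation release, the counter and its use of strand the entry is "not given in the sources used here". Gene positions and biotypes were taken from the GENCODE annotation of GRCm38 and start windows from RefSeq (GRCm38.p6), and 54495 of 54532 gene identifiers matched.

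Counts were filtered by filterByExpr, which left 17658 genes with 99.8% of all counts, scaled by TMM (factors 0.871 to 1.09) and fitted with edgeR 4.0.16 (glmQLFit, robust) in R 4.3.3 over all 12 samples with group means, a biological coefficient of variation of 0.352 being estimated. Contrasts between the 4 groups of 3 were adjusted by Benjamini-Hochberg over all tested genes, with a threshold of 0.05. CPM was computed on the TMM-scaled library sizes. Totals ran from 15566216 to 19498383 counts per library, and the members held 0.307% to 0.498% of them. The methods describe 3 colonic tissues a group, while the labels give replicate numbers without naming animals, so p-values measure the spread between these samples.

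The rule for the members uses names alone, but it, the gene lists and the tests were chosen with earlier results of these data known. Named were members with a known role (Mrpl12, Mrpl45, Mrpl58, Mrps30, Mrps36, Mrps18a, Mrps18b and Mrps18c), in each comparison the 5 called members raised most and the 5 lowered most or else the 3 with the smallest p, the 3 highest and 3 lowest per length in Con and, of each list of the wider machinery, the called genes or those with the smallest p. Alternatives were other scaling (library size, RLE, upper quartile), filters, DESeq2 1.42.0, limma-voom (limma 3.58.1), a fit of 2 groups alone, the replicate number as a block, the position score (5 rectal minus 6 caecal Hox genes) as a covariate and leaving out each library. Leaving out 24 members with uncertain counts was added after seeing the data. The edgeR fit was also run on simulated counts, drawn from the fitted levels and spreads, with 200 changed genes planted. At a planted log2 fold change of 1 it called 0% of them in DSS against Con. The share was 0% in UA+DSS against DSS and 4% in DSS+UA against DSS. At a planted log2 fold change of 2 the shares were 74.5%, 74.5% and 71%. A gene that was not called is therefore not shown to be unchanged.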

Additional observations from a re-analysis of the deposited data

Results flagged for a closer look

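The 2 groups given UA were compared directly, as UA+DSS against DSS+UA in the edgeR fit. The test called 48 of the 77 tested genes, all lower in UA+DSS, where 9.23% of all tested genes were called lowered. Among the 5 lowered most the log2 fold changes were -1.22 for Mrps6, -1.07 for Mrpl33, -0.95 for Mrps7, -0.94 for Mrpl20 and -0.90 for Mrpl18, each with 3 of 3 UA+DSS libraries below every DSS+UA library. The groups also differ in days of gavage (7 against 4) and fully in the position score, which cannot be told apart from the time of UA, and with the score as a covariate 0 of the 77 and 0 of all 17658 tested genes were called and the log2 fold change of Mrpl33 turned to 0.0496.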

How the results depend on the processing

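Counts of members called in DSS against Con were 6 in the reported fit, 1 with no filter, 10 with the position score and 0 with 2 groups alone, and 1 to 7 when single libraries were left out. In UA+DSS against DSS the count was 2, became 0 with no filter, with the position score or with 2 groups alone and 4 with DESeq2, and was 0 to 3 when single libraries were left out. In DSS+UA against DSS it was 23, and was 7 with the library size alone, 14 with upper-quartile factors, 12 with no filter, 2 with the position score, 0 with 2 groups alone, 51 with DESeq2 and 0 to 40 when single libraries were left out. Of all tested genes 7.54% were called there in the reported fit and 2.62% with 2 groups alone. With upper-quartile factors the share was 6.8%, with the library size alone 6.47% and with no filter 2.77%. The share was 17.7% with DESeq2, 10.1% without Con 1 and 0.137% without DSS+UA 3. In DSS+UA against Con it was 39, and was 25 with the library size alone, 17 with the position score, 19 with 2 groups alone and 15 to 49 when single libraries were left out. In UA+DSS against DSS+UA it was 48, and was 0 with the position score and 11 to 57 when single libraries were left out. The share of all tested genes called moved with the settings as well, so counts of members are to be read beside it. With the replicate block, 12 members were called in DSS+UA against DSS, and 5, 2, 0, 38 and 47 in DSS against Con, UA+DSS against DSS, UA+DSS against Con, DSS+UA against Con and UA+DSS against DSS+UA. Of all tested genes 3.13% were then called in DSS+UA against DSS, where the reported fit called 7.54%. In the others, in the same order, the shares were 24.8%, 17.8%, 0.00566%, 16.5% and 17%. The labels do not state that replicate numbers pair the samples. The 18 same-numbered pairs correlated at -0.216 to 0.187 (median 0.0412), with 5 over 0.1. The 36 differently numbered pairs correlated at -0.289 to 0.240 (median -0.0228), with 9 over 0.1. With 3 samples a group, these values cannot decide whether same-numbered samples share a batch. With the position score, the log2 fold change in UA+DSS against DSS+UA turned to 0.0496 for Mrpl33 and to 0.15 for Mrpl52, from -1.07 and -0.71. Of 1056 values of named genes under the alternatives, 810 kept direction and call, 244 kept direction without the call and 2 turned direction. The cause of these moves was not tested. Mrpl53 could be given no level, since 0 counts in a library allow up to 3 by counting error alone.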
